A study of Mus musculus with 12 samples.

Results

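The hemin response of control colonoids is the comparison of 3 libraries from colonoids given hemin with 3 libraries from colonoids given vehicle, 6 of the 12 libraries of the study. These libraries were picked by the genotype and treatment in their labels, and the rule reads no expression value, although the comparison was proposed with earlier results of these data known. Colonoids are organoids grown from colonic epithelial stem cells, and these came from Hmox1 fl/fl mice aged 8 to 12 weeks, in which loxP sites flank the Hmox1 gene and no Cre is named in the labels. Hemin, the chloride of ferric heme, was given at 200 μM for 24 hours. All groups were kept in L-WRN conditioned medium, which carries Wnt, R-spondin and noggin, with serum and a ROCK inhibitor, so vehicle cultures were held in a growing state that the intact colon has mainly at the crypt base. The other 6 libraries, under the same treatments, came from colonoids labelled KO, in which Vil1 Cre acts in epithelial cells, and they are used below only to ask where the control response differed. The labels number the libraries of a group 1, 2 and 3 without saying whether they came from separate animals or cultures, so p-values measure the spread between these libraries, which may be technical.

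Heme is an iron-containing prosthetic group that is toxic when free. Cells break it down with heme oxygenase 1, the product of Hmox1, into biliverdin, carbon monoxide and iron, and store the released iron in ferritin. Heme also binds and removes BACH1, a repressor that shares DNA sites with the activator NRF2, and these antioxidant response elements lie beside genes for ferritin, glutathione synthesis and detoxification. In the colon, crypt stem cells divide and give rise to absorptive colonocytes and secretory goblet cells, and heme from food or blood reaches this epithelium from the lumen.

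Poly-A RNA was sequenced, and expression was deposited as FPKM, a fragment count scaled by gene length and by a library size. That size was not the plain total, which was 0.963 to 0.968 of it with vehicle and 1.003 to 1.022 with hemin. The median ratio of a library to the geometric mean over libraries was 1.00869 in every library. The deposited values were thus already levelled, which holds the median change of all genes near 0. The libraries held 13257589 to 16462911 fragments on genes with vehicle and 11648801 to 11935604 with hemin. Of the 54532 genes in the table, 11860 were tested, those that reached 1 FPKM in 3 or more of the 6 libraries. All 13 epithelial identity genes listed were among them, with Epcam at 795 to 809 FPKM with vehicle and 1361 to 1405 FPKM with hemin. No fibroblast, endothelial, neural or tuft cell marker on the lists passed this filter, and of 15 immune cell markers 1 did. Of 12 small intestinal and Paneth cell markers 2 passed and both fell, the protease Mmp7 3.07-fold and the bile acid transporter Slc10a2 3.03-fold. The summed level of these 12 was 20.1 to 22.3 FPKM with vehicle and 7.15 to 9.25 FPKM with hemin, with Defa17 and Apoa4 at 0 in all 6 libraries. Some libraries stood apart. Hemin replicate 3 had 17795 genes with a fragment, against 19301 and 19294 in the other hemin libraries. The deviation of a hemin library from the mean of the other hemin libraries followed transcript GC content across genes in all of them, with a Spearman rho of 0.429, 0.628 and -0.662 for replicates 1, 2 and 3 over 11850 genes, which are not independent replicates. The non-coding gene Gm23935 held 16.8% of the summed FPKM of vehicle replicate 1, against 1.36 and 1.53% in the other vehicle libraries, and 29.0% in hemin replicate 1, against 1.74 and 2.81%. Fragment counts of vehicle replicate 1 differed from those of replicates 2 and 3 by a chi-square per degree of freedom of 18.3 and 17.4, against 2.56 between replicates 2 and 3, and the hemin libraries differed from each other by 22.9 to 43.1.

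With hemin, 268 genes rose (2.26% of those tested) and 726 fell (6.12%), at an adjusted p under 0.05 from limma and an absolute log2 fold change above 1 on the scale of log2(FPKM + 1), a scale that understates the change of low genes. The heme breakdown gene Hmox1 and genes for iron storage, glutathione synthesis and detoxification were among those that rose. Genes of DNA replication, mitosis, mucus and lipid synthesis were among those that fell. In 992 of the 994 called genes (8.38% of those tested) the hemin and vehicle libraries did not overlap, 268 of them higher and 724 lower, where over all genes tested 25.7% lay wholly higher and 27.8% wholly lower with hemin. Counts of genes called higher and lower were 269 and 713 without vehicle replicate 1 and 276 and 735 without hemin replicate 1. Without hemin replicate 3 they were 301 and 712, and 859 of the 994 genes were called again in the same direction. The share of calls that were increases was 26.96% and depended on the scaling. Rescaling each library to TPM undoes the levelling of the deposited values. It moved the median of all genes, on the log2 fold change scale, from -0.01 to -0.19. It gave 273 genes higher and 1414 lower, and made the share 16.18%. A list median is therefore read against that of all genes, and the share of a list that was called against 2.26% higher and 6.12% lower, where a share near these says nothing particular about the list.

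**Figure D1:**
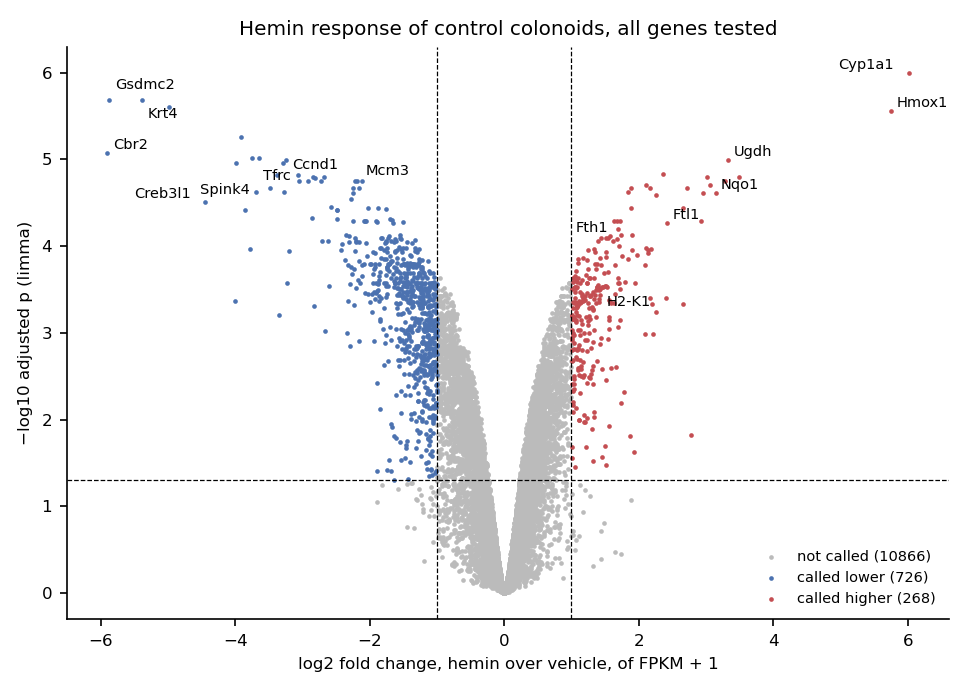
Each point is 1 of the 11860 genes tested, with the log2 fold change of hemin over vehicle on the x axis and -log10 of the limma adjusted p on the y axis. Beyond the dashed thresholds 268 genes rose and 726 fell, with Cyp1a1 and Hmox1 at the right edge and Cbr2, Gsdmc2 and Krt4 at the left edge.

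Hmox1 (ENSMUSG00000005413, chromosome 8, 75093621 to 75100589, GRCm38) had 7.62, 6.85 and 7.90 FPKM with vehicle and 503, 483 and 382 FPKM with hemin. All hemin libraries lay far above the vehicle libraries, a 61.2-fold rise of the mean (log2 fold change 5.75, standard error 0.13, adjusted p = 2.8e-06). It was the single called member of the heme breakdown and transport list, of 9 tested. A later enzyme of the pathway, biliverdin reductase B (Blvrb), had 4.83 ± 0.340 FPKM (SD, n = 3) with vehicle and 5.98 ± 1.32 FPKM with hemin, and the groups overlapped (adjusted p = 0.26). Of the 10 heme synthesis genes none was called, although 4 passed the adjusted p alone upward and 1 downward. The one below was Alas1, which starts heme synthesis and is known to be repressed by heme, 2.12-fold lower with hemin (log2 fold change -0.99, adjusted p = 4.8e-04) and called under 8 of 17 alternatives, among them TPM, a pseudocount of 0.1 and leaving out vehicle replicate 1, hemin replicate 2 or hemin replicate 3. Fech, which inserts iron into the porphyrin ring, was 1.52-fold higher (log2 fold change 0.58, adjusted p = 0.0013).

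Both ferritin chains, which together form the iron storage shell, rose with hemin. The heavy chain Fth1 had 822, 783 and 776 FPKM with vehicle and 2512, 2482 and 2316 FPKM with hemin (3.07-fold, log2 fold change 1.62, adjusted p = 8.6e-05). The light chain Ftl1 went from 423, 424 and 442 FPKM to 2467, 2517 and 1959.8 FPKM (5.39-fold, log2 fold change 2.42, adjusted p = 5.4e-05), although pseudogene copies of Ftl1 leave the assignment of its fragments uncertain. Transferrin receptor (Tfrc), which takes up iron, moved the opposite way. Its libraries had 70.2, 59.9 and 60.0 FPKM with vehicle and 4.78, 5.41 and 6.80 FPKM with hemin, an 11.2-fold fall (log2 fold change -3.28, standard error 0.13, adjusted p = 2.4e-05). For each of these genes the groups were far apart. They were the 3 called members of the 18 iron genes tested. Ferroportin (Slc40a1), the iron exporter, was 1.56-fold higher and missed the fold change threshold (log2 fold change 0.61, adjusted p = 0.0097). None of the 7 metallothionein and zinc response genes tested was called, and the metal-binding Mt1 had 135 ± 4.76 FPKM with vehicle and 94.3 ± 12.8 FPKM with hemin.

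Iron-responsive elements are hairpins in the untranslated ends of mRNA, through which low iron blocks ferritin translation and stabilises Tfrc mRNA. Annotated transcripts (GENCODE M21, GRCm38) were searched for a C, 5 bases, the loop CAGTGN with a last base other than G, and 5 bases that all pair with the first 5, G with T allowed. Such a match was found in the 5′ untranslated region of 0.166% and in the 3′ untranslated region of 0.702% of the tested genes with such a region. The elements are shown because the ferritin genes, which rose, hold 1 in front of the coding region, whereas Tfrc, which fell, holds 4 behind it. Each is printed 5′ to 3′ with the loop in capitals and in the letters of DNA.
Fth1, 5′ untranslated, chr19:9982738-9982754, plus strand: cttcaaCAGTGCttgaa
Ftl1, 5′ untranslated, chr7:45459785-45459801, minus strand: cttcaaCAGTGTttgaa
Slc40a1, 5′ untranslated, chr1:45925471-45925487, minus strand: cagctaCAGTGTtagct
Tfrc, 3′ untranslated, chr16:32631225-32631241, plus strand: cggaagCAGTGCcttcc
Tfrc, 3′ untranslated, chr16:32631604-32631620, plus strand: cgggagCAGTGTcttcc
Tfrc, 3′ untranslated, chr16:32631669-32631685, plus strand: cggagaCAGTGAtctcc
Tfrc, 3′ untranslated, chr16:32631716-32631732, plus strand: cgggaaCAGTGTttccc
Both ferritin elements have the same stem, and differ inside the loop.

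NRF2 target genes had the highest list median. Of 31 tested, 16 rose and none fell, and the median log2 fold change was 1.02, against -0.01 over all genes tested, of which 2.26% rose. NAD(P)H quinone dehydrogenase (Nqo1), which reduces quinones, had 36.5, 31.7 and 31.9 FPKM with vehicle and 266, 265 and 327 FPKM with hemin (8.57-fold, log2 fold change 3.06, adjusted p = 2.0e-05). Ugdh, which makes the UDP-glucuronic acid used to conjugate bilirubin and drugs, had 35.9, 37.2 and 34.7 FPKM with vehicle and 367, 336 and 411 FPKM with hemin (10.3-fold, log2 fold change 3.33, adjusted p = 1.0e-05). In both genes the lowest hemin library was several times the highest vehicle library. Sulfiredoxin (Srxn1), which repairs oxidised peroxiredoxins, rose 3.63-fold (38.9 ± 1.40 to 141 ± 0.770 FPKM), and peroxiredoxin 1 (Prdx1) rose 2.31-fold. The median of the list was 1.10 without hemin replicate 3 and 0.84 under TPM. The regulators themselves were not called, 0 of 8 tested. Nfe2l2, which encodes NRF2, had 89.7 ± 3.46 FPKM with vehicle and 101 ± 18.8 FPKM with hemin (adjusted p = 0.42), and its inhibitor Keap1 had 21.1 ± 1.84 and 18.4 ± 4.74 FPKM (adjusted p = 0.42). In both the groups overlapped. Bach1 was 1.42-fold higher (log2 fold change 0.47, adjusted p = 0.011).

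**Figure D2:**
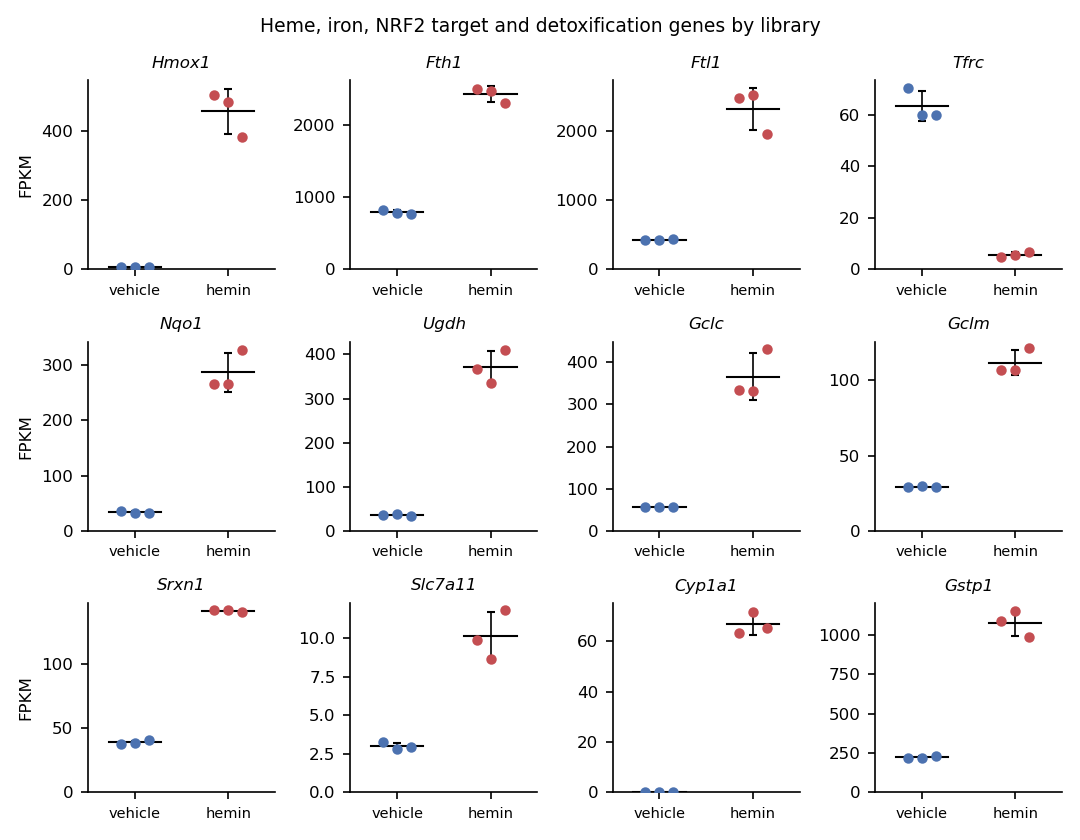
FPKM (y axis, linear, from 0) of 12 genes in each of the 3 vehicle and 3 hemin libraries (points), with the mean (line) and SD (bars). In all 12 genes the hemin libraries lie apart from the vehicle libraries, below them for Tfrc and above them for the other genes.

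Glutathione synthesis rose at its successive steps. The cystine carrier Slc7a11, which supplies cysteine, had 3.24, 2.82 and 2.97 FPKM with vehicle and 9.86, 8.65 and 11.8 FPKM with hemin. The catalytic subunit of glutamate cysteine ligase (Gclc) had 57.7, 56.4 and 55.6 FPKM with vehicle and 334, 332 and 430.1 FPKM with hemin, a 6.46-fold rise (log2 fold change 2.66, adjusted p = 3.6e-05). Its modifier subunit Gclm rose 3.80-fold (29.4 ± 0.223 to 112 ± 8.31 FPKM) and glutathione synthetase (Gss) rose 2.26-fold, a call lost under TPM. The groups did not overlap in any of these genes, of which Slc7a11 and Gss were named after their values were seen. Chac1, which degrades glutathione, also rose, from 11.9 ± 1.23 to 27.7 ± 6.08 FPKM (log2 fold change 1.14, adjusted p = 0.0024), a call lost under TPM and without hemin replicate 1. Within the list of 18 genes, 6 rose and 2 fell. Those that fell were Cbs (7.02-fold lower), which makes cystathionine on the way to cysteine, and the peroxidase Gpx7 (5.36-fold lower). Gpx4, which removes lipid hydroperoxides, was 1.77-fold higher without reaching the threshold (log2 fold change 0.81, adjusted p = 0.0024). Glutathione S-transferases moved both ways, with 4 of 23 higher and 2 lower. Gstp1 rose 4.82-fold to 1073 ± 81.8 FPKM, and Gsta4, which conjugates 4-hydroxynonenal, fell 3.25-fold from 215 ± 8.597 to 66.2 ± 5.92 FPKM. Members of the Gstp and Gsta families are close copies, so fragments could have been split between them.

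Other redox genes moved both ways. Catalase (Cat), which breaks down hydrogen peroxide, rose 2.29-fold, just past the threshold (log2 fold change 1.17, adjusted p = 1.4e-04) and not under TPM. Nox1, an oxidase that makes superoxide, had 9.24, 7.63 and 8.27 FPKM with vehicle and 0.133, 0.128 and 0.104 FPKM with hemin (4 to 5 fragments a library), a 69.1-fold fall (log2 fold change -3.06, adjusted p = 1.5e-05). Duox2, an oxidase that makes hydrogen peroxide, fell 11.3-fold, from 6.96 ± 0.689 to 0.614 ± 0.212 FPKM, and its maturation factor Duoxa2 4.86-fold. Mitochondrial superoxide dismutase Sod2 had 9.28 ± 0.0555 and 11.8 ± 0.564 FPKM (log2 fold change 0.32, adjusted p = 0.017). Over the 9 genes of this list 1 rose and 3 fell. When genes had to reach a mean FPKM of 5, none of those 3 was left and the median of -0.65 turned to 0.32. Txnip, an inhibitor of thioredoxin and of glucose uptake, rose 2.88-fold to 599 ± 50.4 FPKM.

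Xenobiotic metabolism contained the gene with the highest log2 fold change. Cyp1a1 (chromosome 9), a cytochrome P450 induced through the aryl hydrocarbon receptor, had 1, 5 and 0 fragments in the vehicle libraries and 2017, 2359 and 2120 fragments in the hemin libraries, which in the latter is 63.4, 71.6 and 65.1 FPKM (log2 fold change 6.02, adjusted p = 1.0e-06). Cyp1b1, of the same family, rose 34.4-fold from 0.269 ± 0.0549 to 9.24 ± 0.880 FPKM. Tiparp, another gene of the same receptor, rose 3.34-fold and was named after its value was seen. Of the 15 genes of this list 6 rose and 1 fell, Cyp2s1 (5.67-fold lower). Among 18 genes of conjugation and export 5 rose and 2 fell, with a median of 0.74. The glucuronosyltransferase Ugt1a7c rose 5.36-fold from 20.6 ± 0.987 to 110.4 ± 1.97 FPKM, the glucuronide exporter Abcc3 3.31-fold and the drug efflux pump Abcb1a 2.53-fold. The sulfotransferase Sult1c2 fell 20.1-fold, from 32.0 ± 2.30 to 1.59 ± 0.482 FPKM. Genes of the Ugt1a cluster share exons, which leaves the split among them uncertain. Of 9 carboxylesterases tested, counted after their values were seen, 2 rose and 2 fell, Ces2a 2.78-fold and Ces1d 2.69-fold. Among the 15 largest increases were also the carboxylesterases Ces1g (13.6-fold) and Ces1f (12.1-fold), the aldo-keto reductase Akr1c19 (9.28-fold), the retinal dehydrogenase Aldh1a1 (7.99-fold, to 261 ± 39.8 FPKM), the nucleotidase Entpd5 (6.79-fold) and the peptide transporter Slc15a1, which had 0.157 ± 0.0579 FPKM with vehicle and 7.90 ± 1.63 FPKM with hemin.

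Stress pathways other than NRF2 did not rise as groups. Among the 31 ATF4 target genes of the amino acid response, 1 rose and 7 fell, and the median log2 fold change was -0.35, while without hemin replicate 1 none rose and 5 fell. Atf4 had 129 ± 4.42 and 129.8 ± 36.6 FPKM (adjusted p = 0.93), and the asparagine synthetase Asns had 41.7 ± 3.95 and 38.2 ± 7.86 FPKM (adjusted p = 0.52), with overlap in both. The pseudokinase Trib3 fell 2.72-fold, and the stress cytokine Gdf15 fell 12.8-fold from 21.3, 18.5 and 22.98 FPKM to 1.75, 1.78 and 1.39 FPKM, while Chac1 rose as given above. Of 24 unfolded protein response genes 2 fell (8.33%, near the 6.12% of all genes tested) and none rose, and the ER chaperone Hspa5 was 1.45-fold lower (adjusted p = 0.0073). None of 19 heat shock genes or 49 proteasome genes was called. Hspa1a had 1.87 ± 0.586 and 2.07 ± 0.905 FPKM, which overlapped. The p53 target Cdkn1a, an inhibitor of cyclin-dependent kinases, had 55.7 ± 2.10 FPKM with vehicle and 62.0 ± 7.42 FPKM with hemin (log2 fold change 0.15, adjusted p = 0.32). Of the 23 p53 targets tested 1 was called lower, the cell death gene Bbc3 (adjusted p = 0.045), and it was no longer called with a pseudocount of 0.1, with no filter on low values or when any library other than hemin replicate 2 was left out.

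Lysosome and autophagy genes shifted by less than the fold change threshold. Of 43 tested, 37 had a positive log2 fold change, 24 passed the adjusted p alone upward, as did 17.7% of all genes, and 5 were called higher and none lower. The median was 0.48, and 0.50 without hemin replicate 3, and under TPM 2 were called. Neu1, the lysosomal sialidase, rose 2.89-fold (79.4 ± 8.48 to 229 ± 26.9 FPKM), and the membrane protein Lamp2 rose 2.35-fold, a call that was lost without hemin replicate 3 and under TPM. Lamp1 was 1.95-fold higher (log2 fold change 0.96, adjusted p = 8.1e-04), called without vehicle replicate 1 or hemin replicate 2. The autophagy receptor Sqstm1, itself an NRF2 target, had 147 ± 6.43 and 175 ± 21.0 FPKM (adjusted p = 0.13).

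Antigen presentation and interferon genes rose in part. Of 16 genes of the MHC list 5 rose and none fell, but the median was 0.10, turned to -0.06 under TPM and was 0.69 when a mean of 5 FPKM was required. H2-K1, a classical class I chain, had 204, 219.8 and 223 FPKM with vehicle and 602, 657 and 499 FPKM with hemin (2.72-fold, adjusted p = 3.1e-04), H2-T23 rose 2.92-fold, and H2-DMa, which helps load peptides on class II, went from 1.10 ± 0.216 to 6.89 ± 0.690 FPKM. The light chain B2m had 153 ± 24.96 and 217 ± 37.0 FPKM, which overlapped (adjusted p = 0.055). Class I genes are near-identical in part, so their separate values are uncertain. Of 23 interferon-stimulated genes 4 rose, none fell and 22 had a positive log2 fold change, with a median of 0.31. The RNA sensor Ddx58 rose 4.28-fold and the transcription factor Irf7 2.77-fold.

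In the chemokine, cytokine and NF-kB list 1 of 19 rose and 6 fell, where 2.26% of all genes tested rose and 6.12% fell, and the median was -0.30. When a mean of 5 FPKM was required, none of the list rose and 2 fell, with a median of -0.10. Tnf had 8.69, 7.50 and 8.17 FPKM with vehicle and 0.695, 0.413 and 1.04 FPKM with hemin (11.3-fold lower, adjusted p = 1.1e-04). The adhesion molecule Icam1 had 101 to 130 fragments with vehicle and 0 to 3 with hemin. The exception was Ccl20, which attracts lymphocytes, at 2.15 ± 0.550 FPKM with vehicle and 7.76 ± 2.44 FPKM with hemin (log2 fold change 1.45, adjusted p = 0.0026). Of 20 immediate early genes Egr1 rose (3.29-fold) and Myc and Dusp1 fell. Fos had 38.5 ± 0.743 and 25.8 ± 5.29 FPKM (adjusted p = 0.022), and Jun had 29.0 ± 2.19 and 23.2 ± 4.94 FPKM (adjusted p = 0.16).

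Cell division genes fell together. In bulk RNA, fewer dividing cells and less RNA per cell cannot be told apart, here and in the cell type lists that follow. Of 49 DNA replication and G1/S genes 33 fell and none rose, and 46 passed the adjusted p alone downward, as did 20.9% of all genes tested. The median log2 fold change was -1.24, and -1.22 without hemin replicate 3. The replicative helicase subunit Mcm3 had 31.3, 31.1 and 29.4 FPKM with vehicle and 5.61, 5.95 and 6.34 FPKM with hemin, a 5.13-fold fall (log2 fold change -2.18, standard error 0.08, adjusted p = 1.8e-05). Its partner Mcm6 had 32.3, 29.5 and 29.0 FPKM with vehicle and 7.16, 8.55 and 8.92 FPKM with hemin. For both, the groups were far apart. The transcription factor E2f8 fell 7.46-fold, the chromatin factor Uhrf1 5.06-fold and the ribonucleotide reductase subunit Rrm2 3.05-fold. Pcna, the sliding clamp of replication, was 1.72-fold lower and missed the fold change threshold (74.97 ± 5.01 to 43.7 ± 2.04 FPKM, log2 fold change -0.76, adjusted p = 9.3e-04).

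All 46 mitosis and G2/M genes passed the adjusted p alone downward, and 42 of them fell beyond the threshold, with a median of -1.23. The mitotic kinase Plk1 had 51.7, 50.3 and 53.5 FPKM with vehicle and 13.7, 14.8 and 9.89 FPKM with hemin (4.05-fold lower, adjusted p = 2.1e-04). Mki67, a standard marker of dividing cells, had 47.8, 44.5 and 45.2 FPKM with vehicle and 13.9, 15.3 and 17.3 FPKM with hemin (2.96-fold lower, adjusted p = 1.4e-04). Cyclin B2 (Ccnb2) fell 3.42-fold, the anaphase activator Cdc20 3.34-fold, topoisomerase Top2a 2.88-fold and the mitotic kinase Cdk1 2.53-fold, of which Cdc20 and Cdk1, like Mcm6, were named after their values were seen. Ccnd1, the cyclin that starts the cycle in response to Wnt and growth factors, fell 7.05-fold, from 79.95, 82.9 and 83.1 FPKM to 13.0, 11.5 and 10.4 FPKM (log2 fold change -2.72, adjusted p = 1.8e-05), and the growth regulator Myc fell 2.68-fold.

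**Figure D3:**
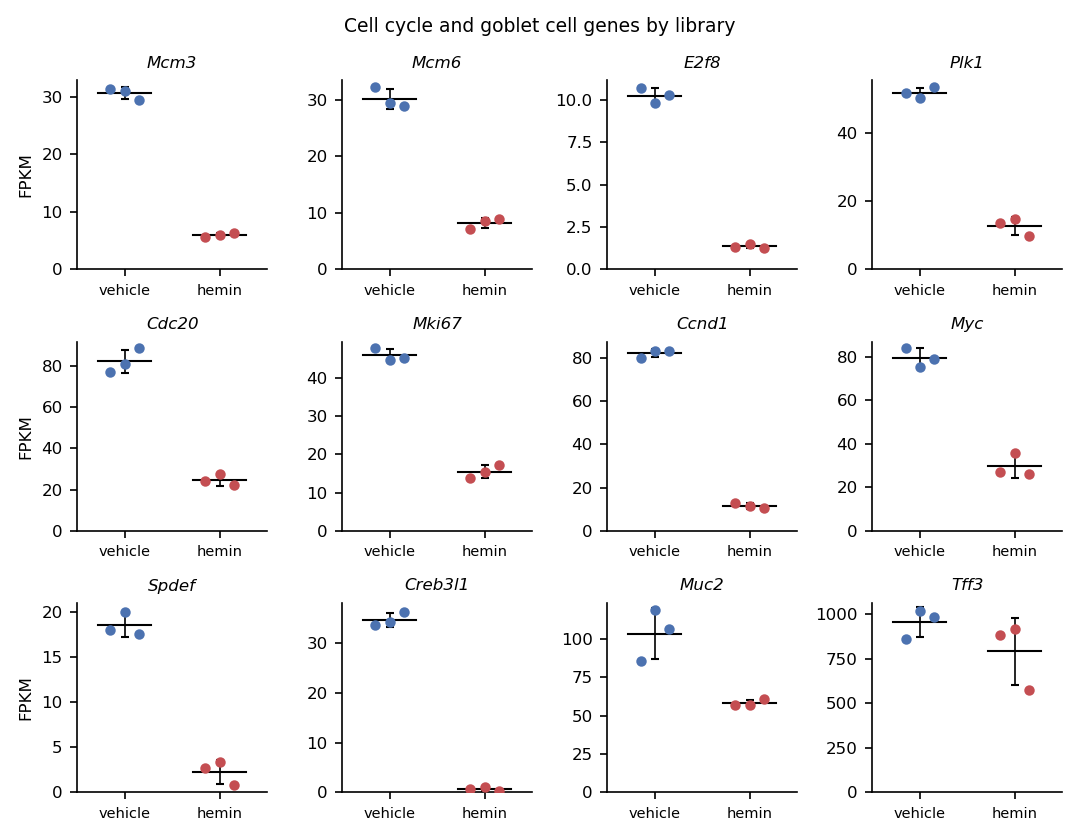
FPKM (y axis, linear, from 0) of 12 cell cycle and goblet cell genes in each library (points), with the mean (line) and SD (bars). The groups overlap for Tff3, and in the other genes all 3 hemin libraries lie below all 3 vehicle libraries.

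Promoters of the gene lists were searched for motifs, and 3 lists are described first, using the RefSeq windows from 250 bases before to 50 bases after each start (GRCm38.p6). The antioxidant response element was searched as TGACNNNGC, the E2F element as TTTCCCGC, TTTGGCGC, TTTGCCGC or TTTCGCGC, the box of nuclear factor Y as CCAAT, and the cell cycle homology region, CHR, as TTTGAA, each on both strands. All but the antioxidant response element were chosen after the calls had been seen, and matches on both strands can overlap. Of the 32 windows of NRF2 target genes 34.38% held an antioxidant response element, against 14.56% of windows of all genes tested, 16.1% of those of genes that rose and 13.96% of those of genes that fell. The ATF4 target genes, of which more fell than rose, held it in 33.33% of 36 windows, and the other 6 lists searched in 13.64 to 20.0%. An E2F element was in 34.69% of 49 windows of DNA replication genes and in 4.06% of those of all genes tested. CCAAT and TTTGAA were found together in 66.67% of the 42 windows of mitosis genes, against 4.98% for all genes tested, 4.66% for genes that rose and 12.36% for genes that fell. The other motifs searched on both strands were the ATF4 element TGATGCAA, the metal response element TGCACNC or TGCGCNC, the heat shock element as GAA, TTC and GAA with 2 bases between neighbours, the sterol element TCACNCCAC and, chosen after the calls had been seen, the AhR element GCGTG. The AhR element was in 36.36% of the 22 windows of the cytochrome P450 and AhR list, below the 51.73% of all genes tested, and in 46.19% of those of genes that rose. The ATF4 element was in 19.44% of windows of ATF4 target genes against 0.63% of those of all genes tested, the metal response element in 72.73% of the 11 windows of metallothionein and zinc genes against 36.14%, the heat shock element in 23.81% of the 21 windows of heat shock genes against 0.49%, and the sterol element in 1 of 20 windows of cholesterol synthesis genes (5.0%) against 1.12%. A match describes the letters and does not show that a factor bound there.

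**Figure D4:**
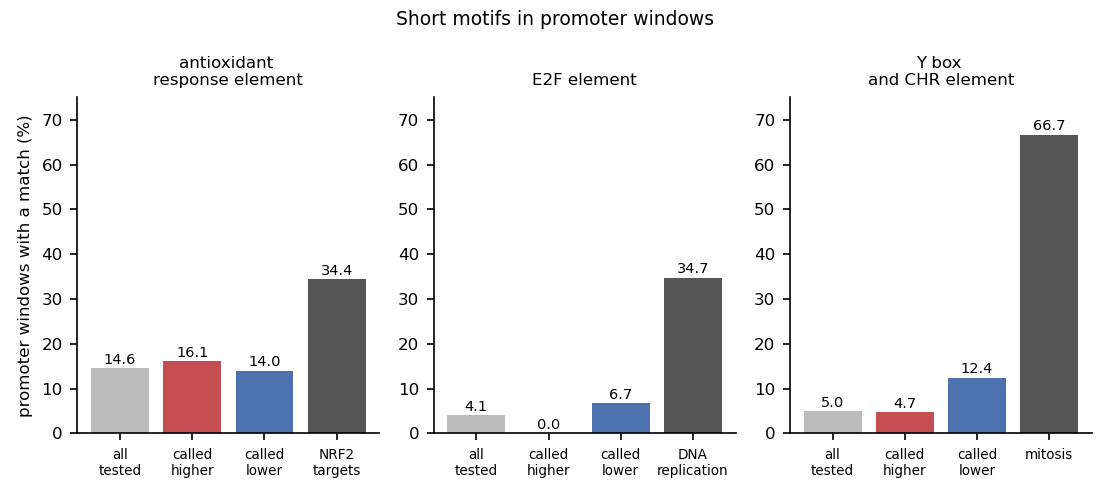
Percentage of promoter windows (y axis, from 0) with a match to the motif named above each panel, for all genes tested, genes called higher, genes called lower and the gene list the motif belongs to, with the CCAAT box named as the Y box. The list bars reach 34.38, 34.69 and 66.67%, and the called genes, which include the list members, stay at or below 16.1%.

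The windows below each give 100 bases upstream of the start, printed 5′ to 3′ along the gene, with the matches in capitals. They were chosen because they hold matches. Windows of Nqo1 and Gstp1 held no antioxidant response element and those of Mcm2, Mcm10, Rrm2 and E2f8 no E2F element as spelled here. The first 3 belong to genes that rose and are shown for their antioxidant response elements.
Prdx1, chr4:116685420-116685519, plus strand: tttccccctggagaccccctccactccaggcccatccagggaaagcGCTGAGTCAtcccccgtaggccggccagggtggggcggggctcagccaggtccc
Ugdh, chr5:65435902-65436001, minus strand: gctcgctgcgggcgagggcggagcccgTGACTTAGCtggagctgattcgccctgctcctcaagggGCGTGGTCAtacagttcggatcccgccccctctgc
Gclm, chr3:122245377-122245476, plus strand: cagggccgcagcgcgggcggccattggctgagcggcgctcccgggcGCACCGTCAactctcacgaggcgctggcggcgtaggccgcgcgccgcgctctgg
The next belongs to Mcm6, which fell, and carries E2F elements, some of them overlapping.
Mcm6, chr1:128359731-128359830, minus strand: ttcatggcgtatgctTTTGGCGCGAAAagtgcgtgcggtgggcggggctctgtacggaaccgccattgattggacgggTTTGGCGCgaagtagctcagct
The last 3 are of mitotic genes that fell, with CCAAT boxes (CCAAT or ATTGG) and CHR elements (TTTGAA or TTCAAA).
Cdc20, chr4:118437344-118437443, minus strand: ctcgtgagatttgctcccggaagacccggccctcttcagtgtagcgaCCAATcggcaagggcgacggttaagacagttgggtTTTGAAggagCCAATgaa
Cdk1, chr10:69352913-69353012, minus strand: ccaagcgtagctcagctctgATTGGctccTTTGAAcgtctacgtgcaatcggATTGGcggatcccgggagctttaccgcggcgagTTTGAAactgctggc
Top2a, chr11:99024190-99024289, minus strand: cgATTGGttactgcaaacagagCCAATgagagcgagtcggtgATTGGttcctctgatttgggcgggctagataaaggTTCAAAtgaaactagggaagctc

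Crypt stem cell and Wnt target genes fell in part. Of 21 tested, 5 fell and none rose, with a median of -0.34. Smoc2, a matrix protein of crypt base cells, fell 9.54-fold, and Lgr5, the marker of crypt stem cells, was 3.13-fold lower at low levels (2.45 ± 0.466 to 0.780 ± 0.0707 FPKM, log2 fold change -0.94, adjusted p = 0.0021), short of the threshold on this scale and past it under 6 of 17 alternatives, among them TPM, a pseudocount of 0.1 and leaving out vehicle replicate 2. Axin2, a feedback inhibitor that follows Wnt signalling, had 5.98 ± 0.591 and 4.58 ± 0.860 FPKM (adjusted p = 0.10). Of the fetal-like and wound repair genes 5 of 28 fell, none rose, and 17 passed the adjusted p alone downward (median -0.56), with 9 called lower under TPM. Sprr1a, a cornified envelope protein, had 112, 99.5 and 103 FPKM with vehicle and 22.3, 21.2 and 21.9 FPKM with hemin (4.82-fold lower, adjusted p = 1.8e-05). Of 6 small proline-rich genes tested it was the 1 that fell. Of the others, outside the list and chosen after their values were seen, 2 rose, Sprr2a2 5.54-fold and Sprr2a1 4.38-fold, and 3 were not called. Sprr2a1 and Sprr2a2 overlap on chromosome 3, so their separate values are uncertain. The YAP target Ctgf fell 5.10-fold, mesothelin (Msln) 4.82-fold and clusterin (Clu), which marks revival stem cells, 3.47-fold. The marker Ly6a had 439 ± 24.4 and 311 ± 37.5 FPKM (log2 fold change -0.50, adjusted p = 0.013), and Anxa1 had 159 ± 16.1 and 171 ± 32.5 FPKM (adjusted p = 0.67).

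Goblet cell genes fell, among them regulators of the lineage. Of 27 tested, 13 fell and none rose, with a median of -0.97. The goblet transcription factor Spdef had 18.0, 20.0 and 17.6 FPKM with vehicle and 2.66, 3.34 and 0.817 FPKM with hemin (8.15-fold lower, log2 fold change -2.67, adjusted p = 9.5e-04). Creb3l1, a transcription factor of secretory cells, had 33.5, 34.1 and 36.2 FPKM with vehicle and 0.775, 1.04 and 0.197 FPKM with hemin, a 51.6-fold fall (log2 fold change -4.45, adjusted p = 3.1e-05). Hemin replicate 3 was the lowest library for both. Atoh1, which sets secretory fate and was named after its value was seen, fell 3.61-fold, the secreted inhibitor Spink4 12.01-fold and the ER stress sensor of goblet cells Ern2 7.44-fold. Muc2, the gel-forming mucin, had 85.6, 119 and 107 FPKM with vehicle and 57.3, 57.3 and 60.8 FPKM with hemin (1.77-fold lower, log2 fold change -0.80, adjusted p = 0.0036), which passed the threshold under TPM alone. Tff3, the trefoil peptide, had 954 ± 84.9 and 791 ± 186 FPKM, with overlap between the groups (adjusted p = 0.26). In the secreted defence list 6 of 11 fell and 1 rose, with a median of -1.20. Dmbt1, a mucosal scavenger protein, fell 4.97-fold from 528 ± 23.8 to 106 ± 15.9 FPKM, and Nos2, inducible nitric oxide synthase, had 206 to 240 fragments with vehicle and 0 to 3 with hemin. Reg3b, a bactericidal lectin, rose from 3 to 9 fragments to 58 to 73 fragments (log2 fold change 2.14, adjusted p = 1.1e-04).

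Absorptive genes moved both ways. Of 37 colonocyte transport and brush border genes 4 rose (10.8%, against 2.26% of all genes tested) and 6 fell (16.2%, against 6.12%), with a median of 0.27. Under TPM 2 were called higher and 8 lower, with a median of 0.13. By the adjusted p alone 17 were higher and 13 lower, where 17.7% and 20.9% of all genes tested were. Carbonic anhydrase 1 (Car1), an abundant colonocyte enzyme, had 2185, 2212 and 1991 FPKM with vehicle and 4419.5, 3984 and 6351 FPKM with hemin (2.31-fold, adjusted p = 0.0032), a call lost under TPM, with no filter on low values and without hemin replicate 3, its highest library. The keratin of mature surface cells Krt20 was 1.71-fold higher (log2 fold change 0.77, adjusted p = 9.4e-04), and the chloride exchanger Slc26a3 2.06-fold higher (log2 fold change 0.97, adjusted p = 0.0027), called under 5 of 17 alternatives, among them leaving out hemin replicate 1 or 2. Against these, the water channel Aqp8 fell 4.27-fold, the alkaline phosphatase Alpi 3.60-fold, and the water channel Aqp1 had 13.7 to 15.2 FPKM with vehicle and 0.0334 to 0.228 FPKM with hemin. Of 23 junction genes 2 fell (8.7%, near the 6.12% of all genes tested) and none rose, and those called were the pore-forming claudins Cldn15 (3.44-fold lower) and Cldn2 (2.87-fold lower), and the scaffold gene Tjp1 had 36.9 ± 1.08 and 36.3 ± 5.62 FPKM. Of 11 enteroendocrine genes the hormone Cck fell and the processing enzyme Cpe rose, and the granule protein Chga had 7.37 ± 1.53 and 6.76 ± 1.61 FPKM. Neurog3, the endocrine fate factor, was 1.58-fold higher (log2 fold change 0.51, adjusted p = 0.011).

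Lipid synthesis genes fell in part. Of 13 fatty acid synthesis genes 4 fell and 1 rose, Me1, also an NRF2 target, whose call was lost without hemin replicate 3 and under TPM. The desaturase Scd1 had 37.7, 39.8 and 41.3 FPKM with vehicle and 7.49, 9.23 and 9.19 FPKM with hemin (4.59-fold lower, adjusted p = 5.1e-05). Fads1 and Fads2, the desaturases on the way to arachidonic acid, fell 6.96-fold and 3.80-fold, and the fatty acid synthase Fasn 2.78-fold. Of 25 cholesterol synthesis genes 5 fell, 18 passed the adjusted p alone downward and the median was -0.63. Pmvk, the phosphomevalonate kinase, fell 3.53-fold, and Lss, the lanosterol synthase, 2.66-fold. The pathway enzymes Hmgcs1 and Sqle were 1.69-fold and 1.56-fold lower and were not called (adjusted p = 0.0033 and 0.0024). The regulator Srebf1 had 40.1 ± 1.56 and 27.5 ± 4.74 FPKM (log2 fold change -0.54, adjusted p = 0.019).

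Most glycolysis and hypoxia genes were lower, few of them past the fold change threshold. Of 32 tested, 5 fell, none rose, and 23 passed the adjusted p alone downward and none upward, with a median of -0.50, and under TPM 11 fell. Ndrg1, induced by hypoxia, had 106, 105 and 111 FPKM with vehicle and 24.1, 18.6 and 25.6 FPKM with hemin (4.71-fold lower, adjusted p = 8.9e-05), and the hypoxia-inducible Ankrd37 and Egln3 fell 5.27-fold and 3.04-fold. Lactate dehydrogenase Ldha was 1.93-fold lower (701 ± 11.98 to 364 ± 26.6 FPKM) and the growth factor Vegfa 1.96-fold lower, both short of the threshold and past it under TPM, Ldha also without hemin replicate 1. None of 76 nuclear and 13 mitochondrial genes of oxidative phosphorylation was called, with medians of 0.22 and 0.47, and 2 nuclear genes were called higher without hemin replicate 3. The nuclear median was 0.03 under TPM, and within hemin replicate 3 it was -0.02, against 0.33 and 0.32 in the other hemin libraries. The mitochondrial median was 0.48, 0.12 and 0.68 within hemin replicates 1, 2 and 3 and ranged from 0.20 without vehicle replicate 3 to 0.63 without hemin replicate 2. Mitochondrial genes were called under 3 settings, 1 lower under TPM, 1 higher and 1 lower without vehicle replicate 1, and 1 higher without hemin replicate 2. Of 81 cytosolic ribosomal protein genes 41 passed the adjusted p alone downward and none upward, with a median of -0.44, and 1 was called lower, Rpl22l1, against 6 under TPM.

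**Figure D5:**
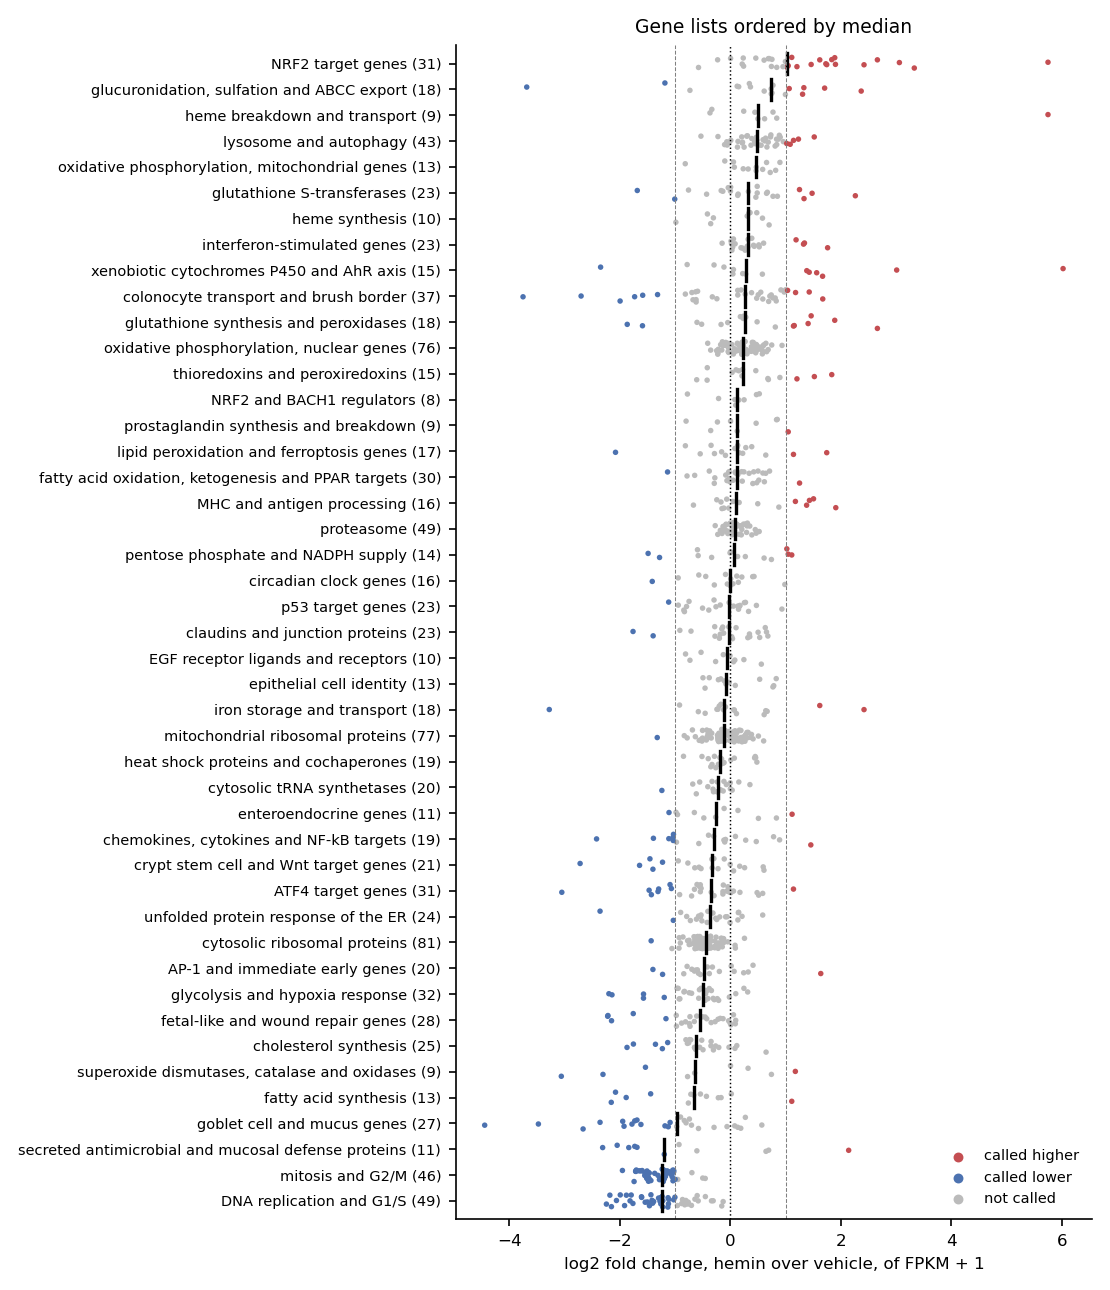
Each row is a gene list with at least 8 genes tested (number in brackets), each point a gene at its log2 fold change of hemin over vehicle (x axis), and the black bar is the median of the list. NRF2 targets have the highest median, 1.02, DNA replication and mitosis genes the lowest, -1.24 and -1.23, and the dotted line marks the median of all genes, -0.01.

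The largest falls were outside these pathways. Cbr2, a carbonyl reductase, had 141, 112 and 117 FPKM with vehicle and 0.859, 0.828 and 1.55 FPKM with hemin, a 114-fold fall (log2 fold change -5.91, standard error 0.16, adjusted p = 8.4e-06). Gsdmc2, a gasdermin with close copies beside it, had 73.6, 77.4 and 68.9 FPKM with vehicle and 0.454, 0.183 and 0.185 FPKM with hemin (log2 fold change -5.87, adjusted p = 2.0e-06). Krt4, a keratin of stratified epithelia, went from 52.4 ± 5.73 to 0.269 ± 0.0606 FPKM and Myl7, an atrial myosin light chain, from 42.7 ± 1.02 to 0.387 ± 0.162 FPKM. The groups were far apart in all 4 genes.

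The response was set beside that of the colonoids labelled KO, which shares no library with it. Hmox1 had 2.11 to 3.14 FPKM with vehicle in those libraries, below the 6.85 to 7.90 of control colonoids, and 1271 to 1392 FPKM with hemin, above the 382 to 503 of control colonoids. A value per gene does not show which exons carry the fragments, so the deletion could not be checked against the label. The genes tested were those that passed the filter in the control libraries, so genes expressed only under the KO label could not be counted. Among the genes tested, hemin raised 578 (4.87%) and lowered 852 (7.18%) in the colonoids labelled KO. Of the genes called in control colonoids, 170 of the 268 and 449 of the 726 were called in the same direction there. The difference of the responses, tested as the interaction with genotype, was called for 509 genes (4.29%), with 2.5% more positive and 1.79% more negative in the colonoids labelled KO. Of the 31 NRF2 targets 17 responded more positively there and none more negatively, and the list median there was 1.74. Of the 27 goblet genes 16 were more negative and 2 more positive there (median -2.18), and of the 28 fetal-like and wound repair genes 15 were more positive and 1 more negative (median 0.17). Of 46 mitosis genes none was called in the interaction, and the list median there was -1.12.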

How the data were processed

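RNA from 12 colonoid libraries was measured, in 4 groups of 3, and the 6 control libraries were compared here. Per the labels and the submitters' processing notes, the authors trimmed reads with fastp, aligned them to mm10 with HISAT2 2.0.5, counted fragments per gene with featureCounts 1.5.0-p3 and deposited FPKM. Whether counting used strand is not given in the sources used here. FPKM multiplied by gene length came out as whole fragments within 1e-06 for 100% of values, which gave the depth of each library. A count of 3 fragments was taken as the floor, and 10 genes called higher had every vehicle library at or under it, as 30 called lower had every hemin library. These limits cover counting error only.

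Genes that reached 1 FPKM in 3 or more of the 6 libraries were tested with limma 3.58.1 (R 4.3.3) on log2(FPKM + 1), with an intensity trend and Benjamini-Hochberg adjustment, and called where the adjusted p was under 0.05 and the log2 fold change exceeded 1 in size. The interaction with genotype was fitted over all 12 libraries on the same genes. All tests were two-sided. The code was tested on simulated data. Fold changes in FPKM are ratios of group means, while log2 fold changes are on the log2(FPKM + 1) scale.

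The comparison and the 51 gene lists were chosen with earlier results of these data known. Of the 1331 listed genes 1098 were tested, and 57 stand on more than 1 list. The text names the 15 largest increases and 15 largest decreases, a fixed core of each list and up to 4 called members per list with the largest change, and genes outside this rule are marked where they stand. Some genes that the rule selects are not reported here. Promoter and protein-coding gene models came from RefSeq and GENCODE, and 10752 promoter windows belonged to tested genes. Alternatives changed the pseudocount, the filter, the scaling, the moderation, the fit, the depth and the libraries included. The replicate number was not used as a pairing, since same-numbered vehicle and hemin libraries deviated with correlations of -0.04, 0.21 and -0.31.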

Additional observations from a re-analysis of the deposited data

Results flagged for a closer look

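Results are listed here because the response to hemin differed between control colonoids and those labelled KO by the interaction test (limma, adjusted p under 0.05 and an absolute difference above 1). That held for 509 of the genes tested, and for 57 of the 145 genes named above. Each value is the log2 response in colonoids labelled KO minus the log2 response in control colonoids.

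The response was more negative in the colonoids labelled KO for 18 of the named genes. Among secretory and endocrine genes the difference was -4.24 for Neurog3, -2.51 for Muc2, -1.93 for Tff3, -1.91 for Creb3l1, -1.70 for Spdef, -1.47 for Ern2 and -1.03 for Atoh1. Among absorptive, junction and stem cell genes it was -2.13 for Cldn15, -1.71 for Slc26a3, -1.65 for Slc15a1 and -1.39 for Smoc2. For enzymes it was -2.69 for Nox1, -2.64 for Cyp1b1, -2.44 for Ces1g and -1.62 for Ces1f. For defence genes it was -2.94 for Ccl20, -2.08 for Reg3b and -1.25 for Ddx58. Ccl20 was called higher in control colonoids (log2 fold change 1.45) and lower in those labelled KO (-1.49). It was the 1 gene called in that way, and 2 genes, Trib3 and Slc10a2, were called in the opposite way.

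It was more positive for the other 39. For heme and iron genes the difference was 2.81 for Hmox1, 1.72 for Tfrc, 1.66 for Fth1, 1.11 for Ftl1 and 1.02 for Blvrb. For redox, NRF2 and detoxification genes it was 2.65 for Slc7a11, 2.14 for Me1, 1.95 for Gclc, 1.81 for Srxn1, 1.70 for Gsta4, 1.65 for Nqo1, 1.5 for Gpx7, 1.31 for Sqstm1, 1.22 for Cyp2s1 and 1.05 each for Ugdh, Abcc3 and Prdx1. For stress genes it was 3.25 for Trib3, 2.75 for Gdf15, 2.31 for Chac1, 1.43 for Fos, 1.18 for Hspa1a and 1.14 for Dusp1. The response of Trib3 was -1.31 in control colonoids and 1.94 with the KO label. For wound repair genes it was 2.25 for Ctgf, 1.82 for Msln, 1.39 for Sprr1a, 1.28 for Anxa1 and 1.17 for Ly6a. For hypoxia genes it was 1.65 for Ndrg1, 1.6 for Egln3 and 1.31 for Ankrd37. The remaining values were 3.03 for Slc10a2, 3.07 for Myl7, 2.83 for Gsdmc2, 2.48 for Aqp8, 1.73 for Krt4, 1.30 for Spink4, 1.24 for Rrm2 and 1.00 for Ccnd1.

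The call was lost under at least 1 alternative for 15 of these genes, namely Abcc3, Atoh1, Blvrb, Ccnd1, Ces1f, Ces1g, Creb3l1, Cyp1b1, Dusp1, Ftl1, Gsdmc2, Hspa1a, Krt4, Prdx1 and Ugdh. For Ces1f, Ces1g and Krt4 the sign depended on the processing, as given below, so no direction is read from them. Vehicle levels of these 3 genes differed between the genotypes, at 0.0542 to 0.0881 FPKM for Ces1f, 0.0249 to 0.128 for Ces1g and 10.9 to 13.4 for Krt4 with the KO label against 3.27 to 4.28, 3.81 to 5.00 and 46.9 to 58.3 in control colonoids. By limma-voom the difference was 0.24 for Gsdmc2 and -0.60 for Cyp1b1, so its size there depended on the processing. On the log2(FPKM + 1) scale a fall is bounded by the vehicle level. Nox1 had few fragments left with hemin in control colonoids, where its response was -3.06 against -5.75 with the KO label. How far vehicle levels enter the other differences was not tested.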

How the results depend on the processing

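For the 145 genes named with values before the closing section on other observations, no called response to hemin in control colonoids reversed direction under the 17 alternatives run. Of their values 2402 kept their side of the threshold, 18 fell below it and 27 rose past it. Genes named only in that section are not counted here. The interaction was less stable. Of 57 named genes called in it, 15 lost the call under 1 or more of 16 alternatives, and 3 of these turned sign, Ces1f from -1.62 to 0.32 with a pseudocount of 0.1 and 1.34 by limma-voom, Ces1g from -2.44 to 0.29 and Krt4 from 1.73 to -0.56 by limma-voom. Cyp1a1, not called at 0.97, was -2.37 by limma-voom. Counts of calls moved with the processing. A pseudocount of 0.1 gave 442 genes higher. A mean FPKM of at least 5 gave 407 lower, with fewer genes tested. Rescaling to TPM gave 1414 lower, and TPM with the abundant non-coding gene Gm23935 left out of the sum, which held 16.8% of the FPKM of vehicle replicate 1 and 29.0% of that of hemin replicate 1, gave 1157. Limma-voom on the recovered fragments gave 453 higher and 1096 lower, and after thinning to the smallest library 454 and 1095. The adjusted p alone gave 2094 and 2484. Limma-voom called 788 genes in the interaction. The causes were not tested, beyond what the settings construct. Leaving out 1 library gave 268 to 301 genes higher, 688 to 814 lower and 481 to 545 in the interaction. With the replicate number as a block, 272 genes were higher and 724 lower, with 986 of the calls shared, and 496 were called in the interaction, so the block changed no count by over 1.5 times. Low medians turned sign under TPM for fatty acid oxidation (0.12 to -0.07), ferroptosis (0.12 to -0.07), proteasome (0.08 to -0.11), prostaglandin (0.12 to -0.04) and pentose phosphate genes (0.07 to -0.12) and NRF2 and BACH1 regulators (0.12 to -0.06), and 5 p53 targets were called lower there.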

Other observations

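Gene families not described above also moved, and they were chosen after their values were seen. All 3 gasdermin C genes tested, neighbours on chromosome 15, fell, with log2 fold changes of -5.87 for Gsdmc2, -3.99 for Gsdmc4 and -3.91 for Gsdmc3, although they are close copies whose fragments could be shared. Of 11 keratins tested, the stratified type Krt4 (-5.39) and Krt14 (-2.30) fell, with Krt7 (-1.17) and Krt84 (-1.14), and none rose. The simple epithelial keratins did not move as 1 group, with log2 fold changes of -0.11 for Krt8, -0.17 for Krt19 and -0.22 for Krt18, against the fall of Krt7 (108 to 48.0 FPKM) and 0.77 for Krt20 (limma, adjusted p = 9.4e-04, short of the fold threshold). Of 5 membrane mucins, which line the apical surface, 3 fell, Muc1 (-2.08), Muc4 (-2.05) and Muc3a (-1.21), from means of 3.74, 6.48 and 25.1 FPKM with vehicle. The others, far more abundant, were higher short of the fold threshold, Muc3 at 303 and 422 FPKM (0.48, limma adjusted p = 0.011) and Muc13 at 255 and 373 FPKM (0.55, limma adjusted p = 0.0029). Among genes first named here, the interaction with genotype was called for Gsdmc3 (2.29), Krt14 (1.58) and Muc3a (-2.12). With hemin in control colonoids Gsdmc3 had 0 to 3 fragments and Krt14 0 to 17.

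Enzymes that reduce or oxidise carbonyls moved both ways. Of 11 aldo-keto reductases 5 rose and 1 fell, and of 16 aldehyde dehydrogenases 4 rose and 3 fell, from 2.95 for Aldh1a1 to -1.61 for Aldh1a3. Of 20 histone genes taken as replication-dependent by symbol alone 6 rose and 2 fell, while none of the 49 DNA replication genes rose. The log2 fold change was 1.69 for Hist1h1c and 1.67 for Hist1h2bc, which are abundant, but other calls rest on few fragments. The 2 that fell, Hist1h3c and Hist1h3g, had 11 to 22 fragments with vehicle and 0 to 5 with hemin. Among those that rose, Hist1h4c had 2 to 14 and 19 to 23, and Hist1h3d 6 to 9 and 35 to 55. The libraries were made from poly-A RNA, which most transcripts of such histones lack, and the part of this in their values was not tested. Of 5 arrestins of the Txnip family 2 rose, Txnip and Arrdc4, with log2 fold changes of 1.52 and 1.51, while the values were 0.96 for Arrdc3, 0.21 for Arrdc2 and -0.22 for Arrdc1, none of them called.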
